A study of Mus musculus with 18 samples.

Results

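Chd8, the gene altered in the mice studied here, lies on mouse chromosome 14 among genes of unrelated function, and 9 of these neighbours are described here in brain microglia. They are Supt16, Rab2b, Tox4, Mettl3 and Hnrnpc, which lie within 94.1 kb of the Chd8 gene body, and Rabggta, Adcy4, Ripk3 and Amer2, which lie 3.46 to 8.12 Mb away on its higher-coordinate side. The 9 were selected from the 935 genes of the table within 10 Mb of Chd8, and from 55414 genes in all, with results of KO against WT in these libraries known. The values of that comparison for the 9 are therefore a description and carry no test. All 9 passed the filter on low counts, as did 130 genes of the 10 Mb interval (Chd8 included) and 10948 genes of the whole table. On the WT libraries alone 8 would have passed, and Adcy4 passed only through its KO libraries, so that it had to differ between them.

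Microglia are the macrophages that reside in brain tissue. Their polyadenylated RNA was measured at its 3' ends by bulk MARS-seq, in which every molecule carries a random barcode, the UMI, so that copies made by amplification are counted once. The 18 libraries came from 5 male KO, 5 male WT, 4 female KO and 4 female WT samples, KO and WT being the labelled Chd8 genotype. The titles of all 18 samples also carry the code HX, which the titles do not explain. The labels give no age, strain, allele, number of altered copies, Cre driver, breeding or pooling of animals, and they do not say that libraries came from separate animals, so the spread between libraries may be partly technical.

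Chd8 encodes a chromatin remodeler and is a known autism risk gene. An altered locus can change the transcription of the genes beside it, and in a bred line the chromosome segment around an altered gene is inherited together with it, along with any sequence variants it carries. Genes near a targeted gene therefore have an additional way to differ between genotypes that genes on other chromosomes lack. The labels name no strain and the tables hold no genotypes, so effects of the altered locus, of variants linked to it and of the loss of Chd8 protein cannot be told apart here.

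The UMI total ran from 435838 to 9149144 per library, with 2022957 to 9149144 in male KO, 2050624 to 3441103 in male WT, 435838 to 3433078 in female KO and 458075 to 1841384 in female WT. The 2 shallowest libraries were female KO replicate 33 and female WT replicate 34. Reads per UMI fell into 3 separate ranges, and the highest (5.52 to 7.26) held 3 of the 4 female WT libraries, 1 female KO library and no male library. The 6 microglial markers fixed for this check summed to 33894 to 41525 CPM (counts scaled to a common library size) over the 18 libraries. These sums were 37722 to 41112 CPM in female KO and 33894 to 36501 CPM in female WT, which did not overlap. In male KO they were 34097 to 39566 CPM and in male WT 37524 to 41525 CPM, which overlapped. Chd8 itself averaged 104 ± 8.52 CPM in male KO and 152 ± 12.7 CPM in male WT (SD, n = 5 each), with a log2 fold change of -0.54 ± 0.10 (SE; edgeR adjusted p = 0.00171, by the Benjamini-Hochberg method). In females it averaged 123.2 ± 10.8 CPM in KO and 166 ± 24.3 CPM in WT (n = 4 each), at -0.44 ± 0.12 (edgeR adjusted p = 0.0547). A 3' tag lying outside an altered part of the gene is still counted, so this level does not check the label.

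The promoters of the 9 genes are shown in part here because 4 of the genes lay higher in KO together, and the letters near their starts allow them to be compared. All 9 had an entry in the RefSeq promoter set (build GRCm38.p6), which spans 250 bases before to 50 bases after each annotated start. Rabggta had 3 entries and each of the others 1, and the shares of all promoters below are per entry. A set of 6 motifs was searched on both strands. They were the PU.1 (ETS) motif GAGGAAGT, the cAMP response element TGACGTCA, the E-box CACGTG, the GC box GGGCGG, the CCAAT box CCAAT and the TATA box TATAAA, and none of them contains another. No motif was present in all 4 of Rabggta, Adcy4, Ripk3 and Amer2. Ripk3 held an E-box, found in 7.15% of all 32851 promoters, and Rabggta and Ripk3 each held a GC box, found in 35.7%. Amer2 held a CCAAT box, found in 37.4%, and Adcy4 held none of the 6. Stretches near these starts follow, each 30 bases long and written 5′ to 3′ along the gene's own strand, with the motif in capitals (for Amer2 the motif lies on the opposite strand and reads ATTGG).
Ripk3 E-box: gcagtttcaaggCACGTGcacaggaaatag
Ripk3 GC box: aatgctccaccccaggGGGCGGagatagaa
Rabggta GC box: gaaacacctgggGGGCGGggccgtgtgggc
Amer2 CCAAT box: tgagagctgctaATTGGtatttgactgacg
Adcy4 bases before the start: cggggaagtgggagggggccttggcgccaa
They lie at chr14:55788901-55788930 and chr14:55788858-55788887 (minus strand, Ripk3), chr14:55721932-55721961 (minus strand, Rabggta), chr14:60377623-60377652 (plus strand, Amer2) and chr14:55784073-55784102 (minus strand, Adcy4). The Ripk3 E-box lies 55 bases before the annotated start and its GC box 8 bases before it. These RefSeq starts differ from the limits of the gene bodies given below. The Rabggta and Amer2 stretches lie inside those gene bodies, and the Adcy4 and Ripk3 GC box stretches lie partly inside.

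Among the 5 genes nearest to Chd8, Supt16 also held an E-box, 214 bases before its start, and with Ripk3 it made up the 2 of the 9 that did. Rab2b was the only one of the 9 with the PU.1 motif, which 3.20% of promoters held and which is bound by PU.1, a transcription factor central to macrophage development. None of the 9 held the cAMP response element (1.79% of promoters) or the TATA box (13.6%). GC boxes were present in Rab2b, Supt16 and Tox4, and CCAAT boxes in Hnrnpc and Rab2b. Shown for comparison are the Supt16 E-box at chr14:52197442-52197471 (minus strand), the Rab2b PU.1 motif at chr14:52279552-52279581 (minus strand, motif on the opposite strand) and the Hnrnpc CCAAT box at chr14:52104058-52104087 (minus strand). A match is a description of these letters and not a binding site.
Supt16 E-box: aagtgggcgggtCACGTGacgggagcctct
Rab2b PU.1 motif: ccgagcgcgtcACTTCCTCaaggagaaagc
Hnrnpc CCAAT box: gaaaagtcacagCCAATaggaacgcctcca

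Among the 9 genes the near and the distal ones differed, a split that their selection with these values known could produce by itself. The 4 distal genes lay higher in KO in both sexes, by 1.40 to 4.11-fold in males and 1.39 to 5.79-fold in females, while none of the 5 genes beside Chd8 was called in either sex. Supt16 was called lower in males in 1 of 27 alternatives, given with its values. A gene is called here at a Benjamini-Hochberg adjusted p under 0.05 over all 10948 genes (edgeR quasi-likelihood test). In males 4 of the 9 were called higher and 0 lower, beside a background of 3.37% called higher and 6.24% called in either direction. In females 4 were called higher and 0 lower, beside 0.849% and 2.68%, and averaged over both sexes 4 were called higher, beside 4.37% and 9.50%. When the range of reads per UMI was added to the model, none of the 4 was called in females (0.56 for Rabggta, 2.19 for Adcy4, 1.01 for Ripk3 and 1.12 for Amer2), and 3 of the 4 female WT libraries share the highest range. That model called 0.913% of all genes in females. With the female groups fitted alone Rabggta (0.50), Ripk3 (1.06) and Amer2 (1.45) were not called, and Adcy4 did not pass the filter. That fit called 0 of all 9188 genes tested in it. The same 4 genes were called in males and in females, which held for 0.868% of all genes tested. Since the genes were selected on these contrasts, nothing is read from those counts or from the split by distance.

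**Figure D1:**
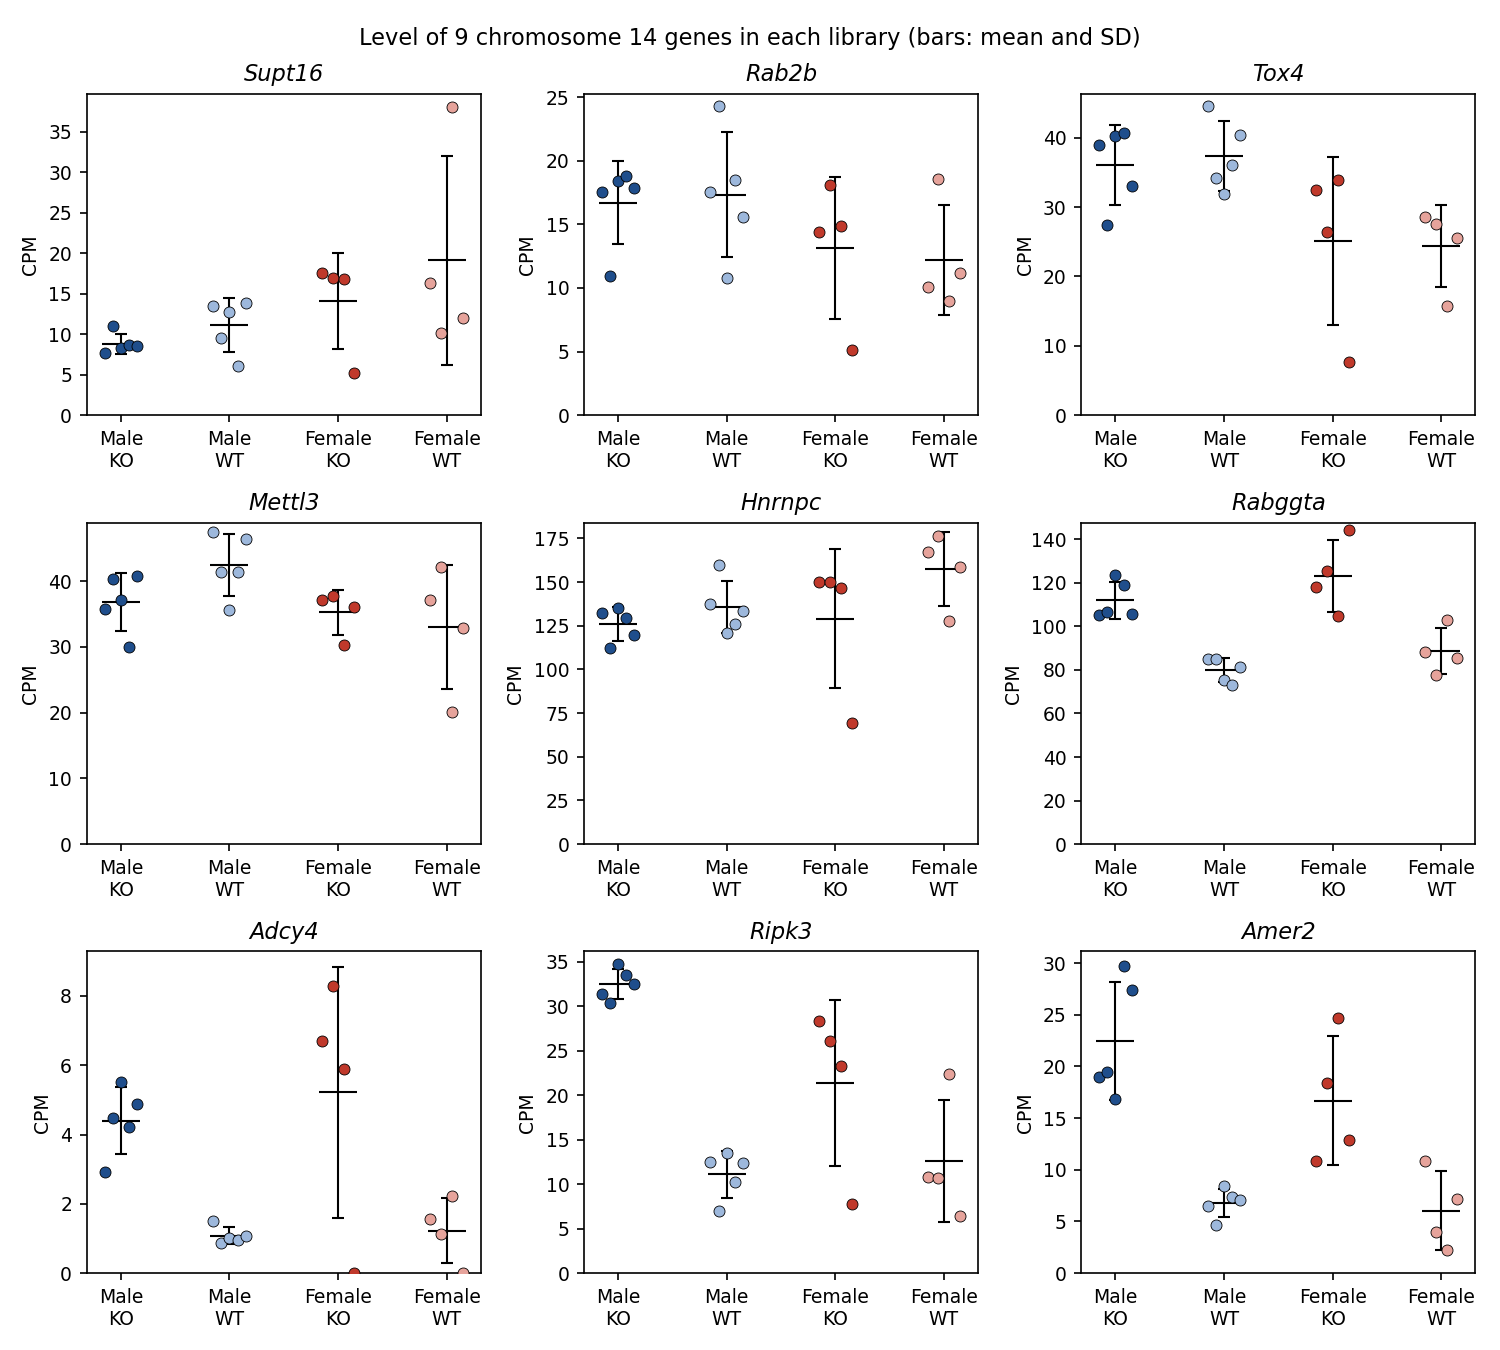
Level of each of the 9 genes (CPM, counts scaled to library size by TMM) in every library, with male KO, male WT, female KO and female WT from left to right. Points are libraries, and bars are the mean and SD of the group. The 5 male KO libraries of Rabggta, Adcy4, Ripk3 and Amer2 lie above all male WT libraries, and the groups overlap for the other 5 genes.

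The start of Supt16 (ENSMUSG00000035726, chr14:52160414-52197416, minus strand, GRCm38) lies 734 bp beyond the 3' end of Chd8, on the same strand. It encodes the large subunit of FACT, the histone chaperone that opens nucleosomes ahead of polymerases. It was measured at 7.66, 11.0, 8.29, 8.65 and 8.53 CPM in male KO replicates 6, 9, 17, 36 and 40, and at 13.5, 9.56, 12.8, 6.06 and 13.8 CPM in male WT replicates 10, 11, 13, 14 and 37. In females it was 17.5, 16.9, 16.8 and 5.15 CPM in KO replicates 1, 7, 16 and 33, and 16.3, 10.1, 38.1 and 12.01 CPM in WT replicates 30, 31, 34 and 39. The groups overlapped in both sexes, and the lowest and highest female values were those of the 2 shallowest libraries, with 2 UMIs in KO replicate 33 and 17 in WT replicate 34. The log2 fold change was -0.34 ± 0.28 (SE) in males and -0.04 ± 0.34 in females. Among males sequenced at the fewest reads per UMI, fitted alone, it was -0.68 and called, and without female WT replicate 34 the female value was 0.32. The 3' end of Supt16 overlaps the opposite-strand gene Rpgrip1 by 3133 bp. The strand setting of the counting is not given in the sources used here, so the reads of such a pair may not be separable.

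On the other side of Chd8, Rab2b begins a run of overlapping genes. Rab2b (ENSMUSG00000022159, chr14:52261759-52279545, minus strand) lies 3978 bp from Chd8 and encodes a small GTPase of the Rab family that acts in membrane traffic. It averaged 16.7 ± 3.25 CPM in male KO and 17.3 ± 4.91 CPM in male WT, and 13.1 ± 5.58 CPM in female KO and 12.2 ± 4.33 CPM in female WT. The log2 fold change was -0.04 ± 0.22 in males and 0.20 ± 0.30 in females. Its libraries overlapped in both sexes, and male KO replicate 9 stood below the other male KO libraries at 11.0 CPM. Without female WT replicate 31 the female value was 0.53, and among males sequenced at the fewest reads per UMI the male value was 0.33.

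Tox4 (ENSMUSG00000016831, chr14:52279146-52296401, plus strand), an HMG-box protein of a phosphatase complex that acts on chromatin, shares 400 bp with Rab2b at their 5' ends. It averaged 36.1 ± 5.74 CPM in male KO and 37.4 ± 5.05 CPM in male WT, and 25.1 ± 12.1 CPM in female KO and 24.4 ± 5.93 CPM in female WT. The difference was -0.04 ± 0.17 (log2) in males and 0.15 ± 0.23 in females, with overlapping libraries in both. When the range of reads per UMI was added to the model the female value was -0.23. Tox4 and Mettl3 lie on opposite strands and share 1561 bp at their 3' ends, where 3' tags are counted, so their values may be mixed with each other.

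Mettl3 (ENSMUSG00000022160, chr14:52294841-52305128, minus strand) encodes the catalytic subunit of the enzyme that writes N6-methyladenosine (m6A) on RNA, and Hnrnpc encodes an RNA-binding protein of pre-mRNA splicing that reads m6A-dependent structure. Mettl3 averaged 36.8 ± 4.38 CPM in male KO and 42.5 ± 4.74 CPM in male WT, at a log2 fold change of -0.20 ± 0.13. In females it averaged 35.3 ± 3.41 CPM in KO and 33.1 ± 9.42 CPM in WT, at 0.00 ± 0.20. Hnrnpc (ENSMUSG00000060373, chr14:52073377-52104028, minus strand), 94.1 kb from Chd8 on the lower-coordinate side, averaged 126 ± 9.65 CPM in male KO and 136 ± 14.9 CPM in male WT, at -0.11 ± 0.14. In female KO its libraries held 150, 150, 146 and 69.5 CPM in replicates 1, 7, 16 and 33, and in female WT 167, 176, 128 and 158 CPM in replicates 30, 31, 34 and 39. The low female KO value was that of replicate 33, which had 27 UMIs of Hnrnpc, and the female log2 fold change was -0.24 ± 0.16. Hnrnpc stood at -0.10 in females without that library, at -0.08 on read counts and at -0.48 with the range of reads per UMI in the model. Female KO replicate 33 also held the lowest value of its group for Supt16, Rab2b, Tox4, Adcy4 and Ripk3, 6 of the 9 genes in all, and the highest for Rabggta.

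Beyond these genes the close surroundings of Chd8 held 4 further tested genes within 250 kb, chosen by position alone. Arhgef40, 192 kb away, averaged 275 ± 11.1 CPM in male KO and 278 ± 30.7 CPM in male WT. Sall2, a zinc finger transcription factor 53.4 kb away, had a log2 fold change of 0.09 ± 0.22 in males and 0.09 ± 0.32 in females. Zfp219, a zinc finger gene, stood at -0.03 ± 0.13 and 0.04 ± 0.16, and Rpgrip1, a gene of photoreceptor cilia, at -0.12 ± 0.37 and 0.42 ± 0.53. None of these 4 genes was called in males, in females or on average with edgeR, 0 had an unadjusted p under 0.05 in any of the 3 contrasts, and DESeq2 called 0. Chd8 was therefore the only called gene of the 10 tested within 250 kb, and the 9 others include 5 that were selected with these values known.

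Rabggta (ENSMUSG00000040472, chr14:55715416-55722263, minus strand) stood 3.46 Mb from Chd8, on the higher-coordinate side. It encodes the alpha subunit of Rab GGTase, the enzyme that attaches lipid anchors to Rab GTPases such as Rab2b. Its male KO libraries held 105, 107, 123, 119 and 106 CPM in replicates 6, 9, 17, 36 and 40, and its male WT libraries 85.1, 84.8, 75.3, 73.0 and 81.5 CPM in replicates 10, 11, 13, 14 and 37. Female KO replicates 1, 7, 16 and 33 held 118, 126, 105 and 144 CPM, and female WT replicates 30, 31, 34 and 39 held 88.3, 77.6, 103 and 85.6 CPM. Every KO library of each sex lay above every WT library of that sex, and Rabggta was the only 1 of the 9 for which this held in females, where 5.32% of all genes did so. The log2 fold change was 0.49 ± 0.10 in males, or 1.40-fold, and 0.47 ± 0.12 in females, or 1.39-fold. The male call was lost on read counts without UMI correction (0.45) and without male KO replicates 6, 9 and 17 (0.50), and the female call held in 12 of 26 alternatives, over which its log2 fold change ran from 0.33 to 0.56. Leaving out female KO replicate 1 (0.50) or 7 (0.46), female WT replicate 30 (0.49), 31 (0.41) or 39 (0.47), male KO replicate 6 (0.47), or male WT replicate 10 (0.47), 14 (0.47) or 37 (0.48) each ended it.

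Adcy4 and Ripk3 are neighbours on the minus strand, at 3.51 and 3.53 Mb from Chd8, and the 3' end of Ripk3 lies 899 bp before the start of Adcy4. Adcy4 (ENSMUSG00000022220, chr14:55769057-55784095, minus strand) encodes an adenylyl cyclase, an enzyme that makes cyclic AMP. It was counted at 8, 9, 18, 20 and 48 UMIs in male KO replicates 6, 9, 17, 36 and 40, and at 3 UMIs in each of the 5 male WT libraries. These are 2.92, 4.48, 5.53, 4.22 and 4.87 CPM in male KO, and 0.87 to 1.502 CPM in male WT. In females it had 13, 27, 21 and 0 UMIs in KO replicates 1, 7, 16 and 33, and 2, 2, 1 and 0 UMIs in WT replicates 30, 31, 34 and 39. A count of 0 allows up to 6.88 CPM in female KO replicate 33 and up to 2.27 CPM in female WT replicate 39, limits that cover counting error only. These limits are scaled by the library total and not by TMM. On the TMM scale 3 UMIs in female KO replicate 33, as counted for Ripk3, are 7.72 CPM. All male KO libraries lay above all male WT libraries, and in females 3 of 4 KO libraries lay above every WT library. The fitted log2 fold change was 2.04 ± 0.41 in males and 2.53 ± 0.57 in females, and the ratio of group means was 4.08 in males and 4.25 in females. The male call was lost on read counts without UMI correction (1.86). The female call held in 19 of 25 alternatives. It was lost on read counts (2.28), with the range of reads per UMI in the model (2.19), and without KO replicate 1 (2.51) or 7 (2.32), or WT replicate 30 (2.81) or 39 (2.10). At this depth single WT libraries of Adcy4 rest on 3 molecules or fewer.

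Ripk3 (ENSMUSG00000022221, chr14:55784995-55788865, minus strand) encodes the kinase that phosphorylates MLKL to start necroptosis, a lytic and inflammatory form of cell death. It stood at 31.4, 30.4, 34.7, 33.5 and 32.5 CPM in male KO replicates 6, 9, 17, 36 and 40, and at 12.5, 6.95, 13.5, 10.2 and 12.4 CPM in male WT replicates 10, 11, 13, 14 and 37. The lowest male KO library held more than every male WT library, and the coefficient of variation was 5.27% in male KO and 23.5% in male WT. Female KO replicates 1, 7, 16 and 33 held 28.3, 26.1, 23.3 and 7.72 CPM, and female WT replicates 30, 31, 34 and 39 held 10.8, 10.7, 22.4 and 6.40 CPM. The female overlap came from the 2 shallowest libraries, KO replicate 33 with 3 UMIs and WT replicate 34 with 10. The log2 fold change was 1.56 ± 0.21 in males, or 2.96-fold, and 1.11 ± 0.29 in females, or 2.16-fold. Without those 2 libraries the female value was 1.46.

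The male call of Ripk3 held in 27 of 27 alternatives, at 1.36 to 1.66, and the female call in 10 of 26, at 0.91 to 1.46. Leaving out any of female KO replicates 1, 7 and 16 or female WT replicates 30, 31 and 39 ended the female call, at 0.91 to 1.15. So did leaving out male KO replicate 6, 17, 36 or 40 or male WT replicate 10, 14 or 37, at 1.11 to 1.12. Averaged over both sexes Ripk3 stood at 1.34 ± 0.18 and was called in 25 of 25 alternatives, as were Rabggta, Adcy4 and Amer2.

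Amer2 (ENSMUSG00000021986, chr14:60373259-60388197, plus strand) is the most distant of the 9, at 8.12 Mb from Chd8. It encodes a membrane-bound protein that recruits the tumour suppressor APC and regulates Wnt signalling. Its male KO libraries held 19.0, 19.4, 16.9, 29.7 and 27.4 CPM in replicates 6, 9, 17, 36 and 40, and its male WT libraries 6.51, 4.63, 8.41, 7.33 and 7.09 CPM in replicates 10, 11, 13, 14 and 37. Female KO replicates 1, 7, 16 and 33 held 10.8, 18.4, 24.7 and 12.9 CPM, and female WT replicates 30, 31, 34 and 39 held 10.8, 3.93, 2.24 and 7.20 CPM. The male groups did not overlap, and in females KO replicate 1 and WT replicate 30 were level. The log2 fold change was 1.75 ± 0.26 in males, or 3.36-fold, and 1.45 ± 0.36 in females, or 2.73-fold. The female call held in 18 of 26 alternatives, over which the value ran from 0.77 (read counts without UMI correction) to 1.88. It was lost on those read counts, with the female groups fitted alone (1.45), with the range of reads per UMI in the model (1.12), and without KO replicate 7 (1.45) or 16 (1.19), or WT replicate 31 (1.19), 34 (1.33) or 39 (1.51).

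**Figure D2:**
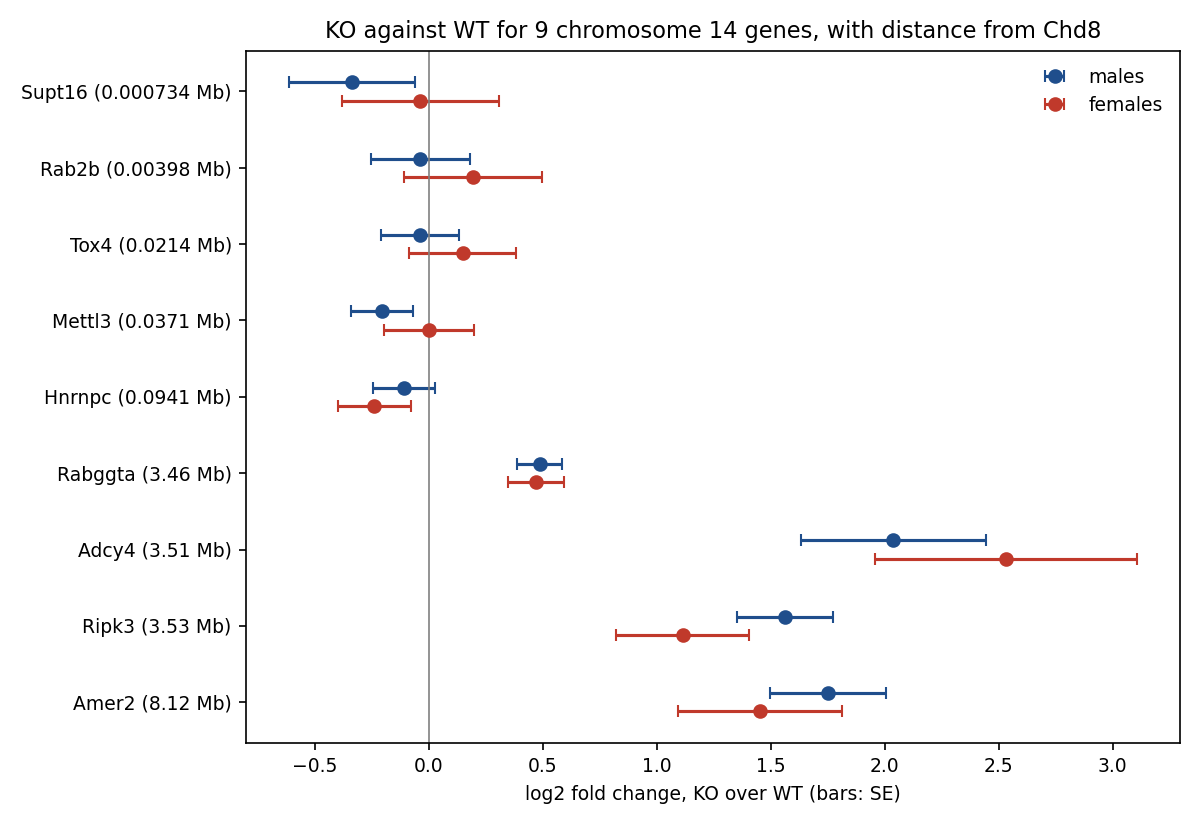
Log2 fold change of KO over WT (horizontal axis, bars are SE) for the 9 genes in males and in females, ordered with the 5 genes beside Chd8 above the 4 distal genes and labelled with the distance from Chd8 in Mb. The 5 nearby genes lie between -0.34 and 0.20, and Rabggta, Adcy4, Ripk3 and Amer2 lie between 0.47 and 2.53.

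Male KO libraries separated from male WT libraries for 4 of the 9 genes, beside a background of 9.85% of all genes tested. Transcripts of other brain cells moved with the same contrast. The 8 neuronal markers summed to 69.9 to 330 CPM in male KO and 13.2 to 37.8 CPM in male WT. The 8 astrocyte markers summed to 253 to 492 CPM in male KO and 131 to 180 CPM in male WT, and the 7 markers of the oligodendrocyte lineage to 242 to 826 CPM in male KO and 101 to 152 CPM in male WT. Every male KO library exceeded every male WT library in each of these sums. The same held for border-associated macrophages, the macrophages at the edges of the brain, whose 7 markers summed to 151 to 244 CPM in male KO and 28.6 to 53.8 CPM in male WT. Among defining markers, Gja1 and Slc4a4 (astrocytes) and Mog (oligodendrocytes) were at 0 in every male WT library, and Pdgfra was at 0 in every male KO library. In females the neuronal sums were 27.7 to 86.0 CPM in KO and 28.8 to 116 CPM in WT, with Gad1 at 0 in both groups, and the border-associated macrophage sums were 135 to 252 CPM in KO and 124 to 283 CPM in WT. In bulk RNA a larger number of cells of a type and more RNA per cell cannot be told apart.

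Amer2 was set beside the neuronal sums within the 5 male KO libraries. Its highest levels, 29.7 and 27.4 CPM, were in male KO replicates 36 and 40, which had the lowest neuronal sums of that group at 69.9 and 84.1 CPM. Replicates 6, 9 and 17, with neuronal sums of 262.5, 330 and 205 CPM, held 19.0, 19.4 and 16.9 CPM of Amer2. Without those 3 libraries the male log2 fold change of Amer2 was 2.08, Ripk3 stood at 1.59, Adcy4 at 2.09 and Rabggta at 0.50. The 7 endothelial and mural markers, summed, did not separate the male groups, with 34.5 to 38.7 CPM in male KO and 33.4 to 42.6 CPM in male WT. In females these sums were 29.8 to 38.4 CPM in KO and 38.7 to 52.4 CPM in WT, and every KO library lay below every WT library. The 5 monocyte markers summed to 26.7 to 59.5 CPM in male KO and 31.1 to 58.5 CPM in male WT, and the 7 neutrophil markers to 323 to 624 CPM in male KO and 311 to 1145 CPM in male WT, so neither separated the male groups. In females monocyte sums were 75.7 to 108 CPM in KO and 108 to 397 CPM in WT, and neutrophil sums 981 to 5234 CPM in KO and 2145 to 15567 CPM in WT. Female astrocyte sums were 34.4 to 257 CPM in KO and 43.0 to 133 CPM in WT, and oligodendrocyte lineage sums 151 to 207 CPM in KO and 107 to 240 CPM in WT. The part of transcripts of these other cells in the levels of Rabggta, Adcy4, Ripk3 and Amer2 was not tested.

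**Figure D3:**
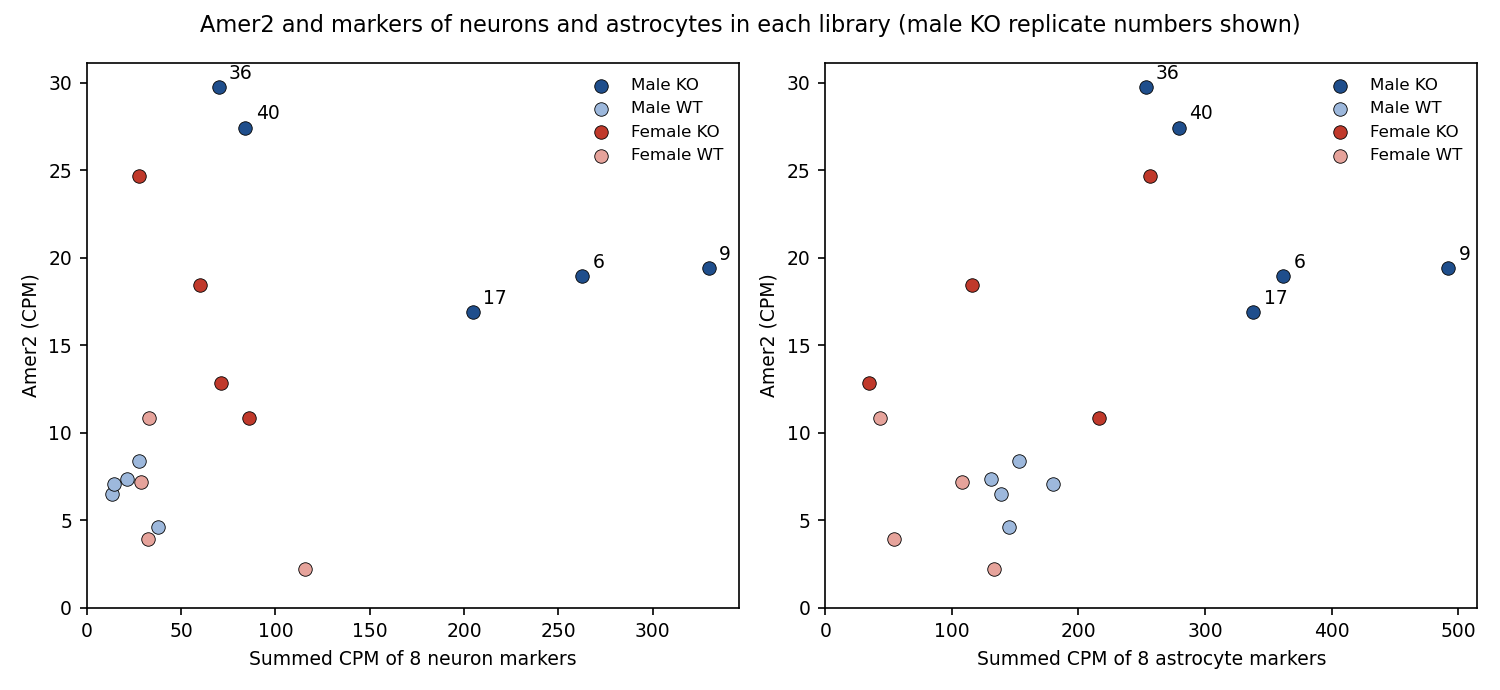
Amer2 (CPM, vertical axis) against the summed CPM of 8 neuronal markers (left) and 8 astrocyte markers (right) in each library, with male KO replicate numbers beside their points. Male KO replicates 36 and 40 have the highest Amer2 levels (29.7 and 27.4 CPM) and the lowest neuronal sums of the male KO group (69.9 and 84.1 CPM).

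Whether the levels of the 9 genes differed between the sexes was asked within each genotype, a comparison that did not enter their selection, although it uses the same libraries. In KO, male against female, 0 of the 9 were called by edgeR, beside a background of 7.10%, 1 had an unadjusted p under 0.05, and DESeq2 called 0. That gene was Supt16, with 8.82 ± 1.25 CPM in male KO and 14.1 ± 5.97 CPM in female KO (SD) and a log2 fold change of -0.86 ± 0.30 (edgeR adjusted p = 0.0800). It was called without the 2 shallowest libraries, at -0.97, and without female WT replicate 34, at -0.86, and its edgeR adjusted p was between 0.0185 and 0.570 in 26 alternatives. In WT, male against female, 0 of the 9 were called by edgeR, beside a background of 17.3%, 1 had an unadjusted p under 0.05, and DESeq2 called 0. That gene was Tox4, with 37.4 ± 5.05 CPM in male WT and 24.4 ± 5.93 CPM in female WT and a log2 fold change of 0.54 ± 0.21 (edgeR adjusted p = 0.0896, ranging from 0.0272 to 0.975 over 26 alternatives). Tox4 was called without female KO replicate 33, at 0.54, with both WT groups fitted alone, at 0.52, and with no filter on low counts, at 0.65, and stood at 0.05 with the range of reads per UMI in the model. Hnrnpc in WT was called without the 2 shallowest libraries, at -0.30.

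For the 4 distal genes the male against female difference in WT was near 0 with wide intervals. Ripk3 stood at -0.00 (95% interval -0.64 to 0.64), Amer2 at 0.06 (-0.72 to 0.83), Adcy4 at -0.01 (-1.46 to 1.44) and Rabggta at -0.12 (-0.36 to 0.12), all on the log2 scale. In KO the corresponding values were 0.45 (-0.00 to 0.90) for Ripk3, 0.36 (-0.18 to 0.89) for Amer2, -0.50 (-1.23 to 0.23) for Adcy4 and -0.11 (-0.33 to 0.12) for Rabggta. Ripk3 in KO had an edgeR adjusted p of 0.210, with a log2 fold change of 0.45 ± 0.22, and that adjusted p was between 0.171 and 0.549 in 26 alternatives. The intervals of Ripk3, Adcy4 and Amer2 in WT reach past 0.5 in both directions, so their sex differences were not narrowed down at this depth.

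**Figure D4:**
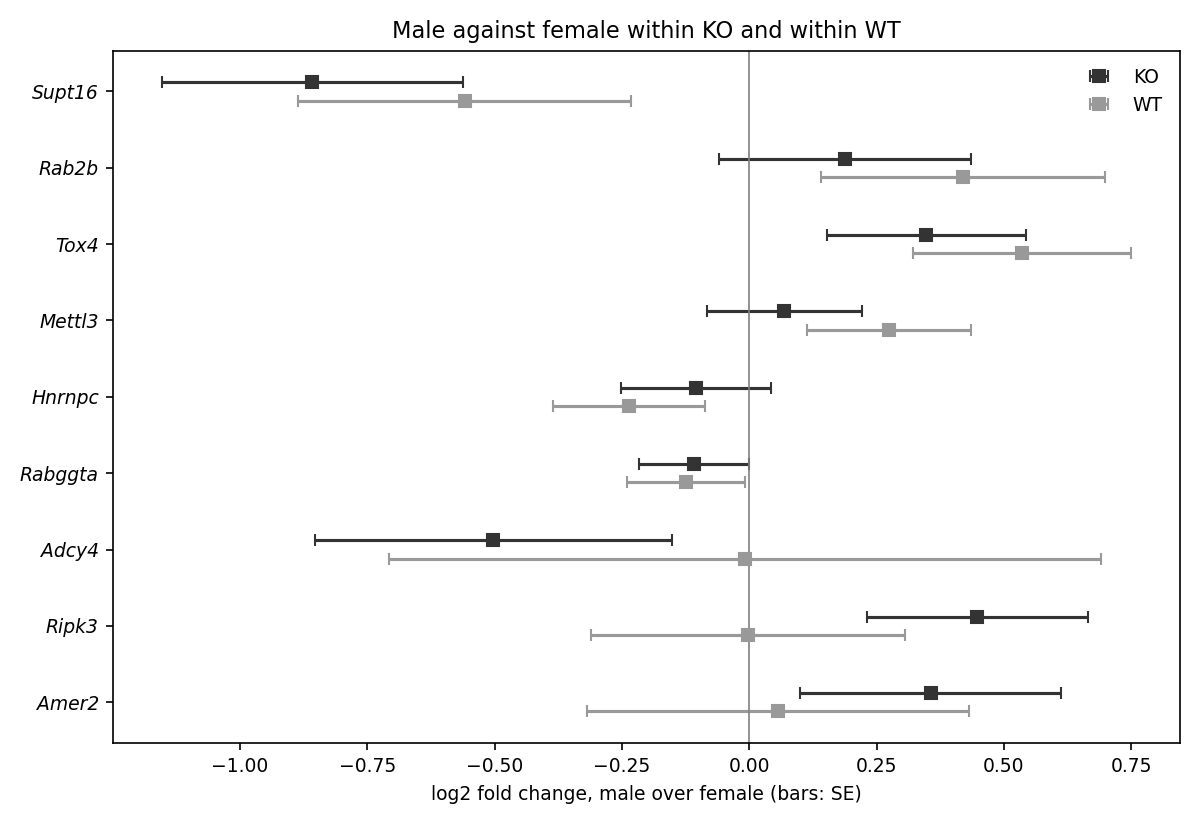
Log2 fold change of male over female libraries (horizontal axis, bars are SE) for the 9 genes, within KO and within WT. None of the 9 was called. Supt16 in KO (-0.86) and Tox4 in WT (0.54) lie farthest from 0 relative to their SE.

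The wider interval was described by position. Of the 130 tested genes within 10 Mb, 12 were called in males (7 higher and 5 lower in KO, 9.23%) and 7 in females (4 higher and 3 lower, 5.38%), beside 6.24% and 2.68% of all genes. Averaged over both sexes 16 were called (9 higher and 7 lower, 12.3%), beside 9.50%. The median log2 fold change of the 130 was -0.02 in males and 0.02 in females, and over all genes tested it was -0.01 and 0.01. Without Chd8 and the 9 selected genes, 7 of 120 were called in males (5.83%), 3 in females (2.50%) and 11 on average (9.17%), each a share near the background. Those 3 in females were all lower in KO, and none of the 120 was called in both sexes. The count in females was 0 when the 2 female groups were fitted alone, where 17 of 108 genes had an unadjusted p under 0.05. That fit called 0 of all 9188 genes, with 828 at an unadjusted p under 0.05. DESeq2 on all libraries called 8 of 130 in females. The edgeR count in females was 0 without female KO replicate 7 (21 of 130 unadjusted), where 95 of all 11174 genes were called. It was 14 without female KO replicate 33 (10.5%), beside 6.09% of all genes.

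The share of called genes was then taken by distance. In males 2 of 12 tested genes besides Chd8 up to 0.5 Mb away were called (16.7%, Ndrg2 and Mettl17), 1 of 14 at 1 to 2 Mb (7.14%), 5 of 65 at 2 to 5 Mb (7.69%) and 3 of 38 at 5 to 10 Mb (7.89%). In females 0 of the 12 nearest genes and 0 of 14 at 1 to 2 Mb were called with edgeR, beside 2.68% of all genes. At 2 to 5 Mb 5 of 65 were called in females (7.69%) and at 5 to 10 Mb 2 of 38 (5.26%). The counts beyond 2 Mb include the selected genes Rabggta, Adcy4, Ripk3 and Amer2. Averaged over both sexes, 1 of 12 tested genes besides Chd8 up to 0.5 Mb away was called (Ndrg2), 2 of 14 at 1 to 2 Mb, 10 of 65 at 2 to 5 Mb (15.4%) and 2 of 38 at 5 to 10 Mb (5.26%), and no gene was tested at 0.5 to 1 Mb. The rest of chromosome 14 had 20 of 233 called (8.58%) and the other chromosomes 1004 of 10585 (9.49%). The higher-coordinate side at 2 to 5 Mb, where Rabggta, Adcy4 and Ripk3 lie, held 9 called genes of 53 (17.0%), including those 3 selected genes. The lower-coordinate side at 2 to 5 Mb held 1 of 12 (8.33%). The limit of 10 Mb had the pseudogene Cdv3-ps (9.08 Mb) and Gm27010 (9.37 Mb) as the last tested genes inside it and Fam213a (11.2 Mb) and Rnaseh2b (10.03 Mb) as the first outside. Their average log2 fold changes were 0.61 ± 0.63, -0.83 ± 0.30, 0.57 ± 0.22 and 0.26 ± 0.18.

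**Figure D5:**
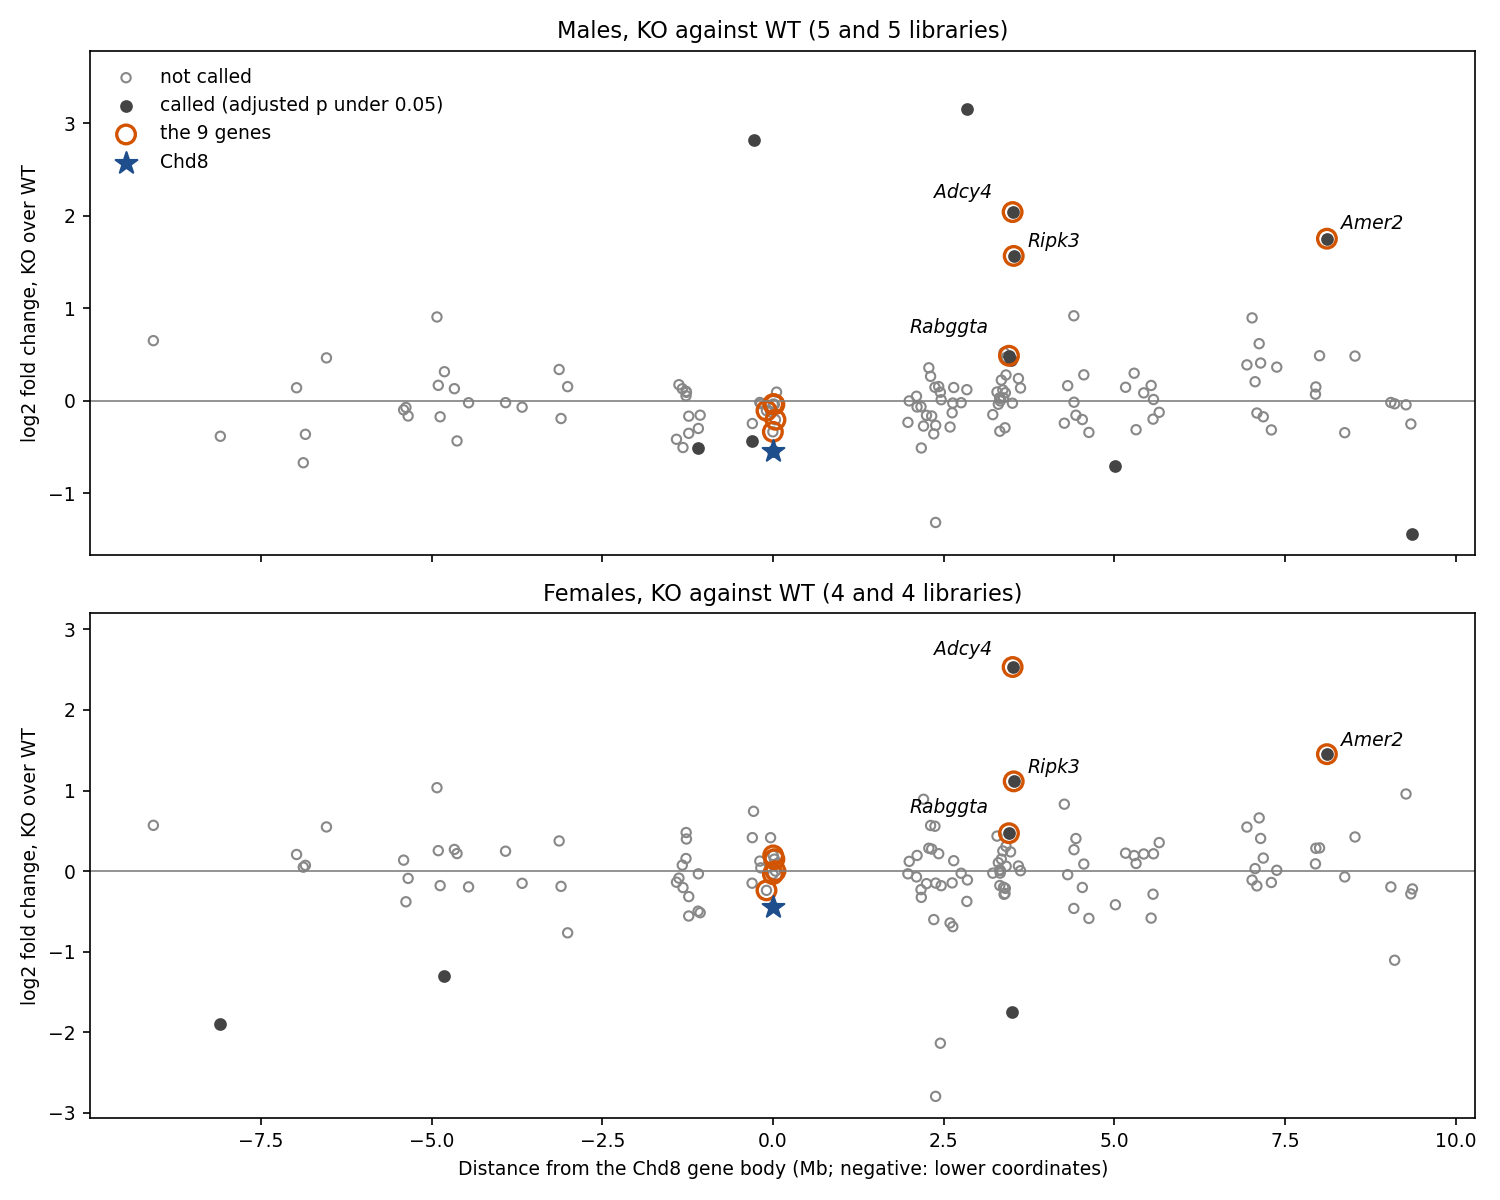
Log2 fold change of KO over WT (vertical axis) against distance from the Chd8 gene body in Mb (horizontal axis) for the 130 tested genes within 10 Mb, with males above and females below. Filled points are called genes, rings mark the 9 genes and the star marks Chd8. The rings at Chd8 lie near 0, and those of Rabggta, Adcy4, Ripk3 and Amer2 lie above it in both sexes.

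Neighbours of the distal genes did not all move with them. Within 100 kb of the stretch from Rabggta to Ripk3, an interval set around selected genes after the values were seen, 14 genes were tested. Averaged over both sexes 6 of them were called, beside 9.50% of all genes tested. Of those 3 were the selected genes, and the others were Gmpr2, a guanosine monophosphate reductase, at 0.29 ± 0.07 (edgeR adjusted p = 0.00998), Dhrs1, a dehydrogenase, at 0.34 ± 0.10 (edgeR adjusted p = 0.0291), and Ltb4r1, the leukotriene B4 receptor, at -0.89 ± 0.24 (edgeR adjusted p = 0.0220). Ltb4r1 lies 562 bp from Adcy4 on the opposite strand and was lower, not higher. It averaged 15.5 ± 8.82 CPM in female KO and 43.5 ± 18.1 CPM in female WT (log2 fold change -1.75 ± 0.35, edgeR adjusted p = 0.0117), and 7.37 ± 2.38 CPM in male KO and 7.14 ± 1.93 CPM in male WT. The median neutrophil marker sum was 1663 CPM in female KO and 5350 CPM in female WT, the median monocyte sum was 83.6 CPM in female KO and 334 CPM in female WT, and their part in Ltb4r1 was not tested. Nedd8 (-0.06 ± 0.10), Tm9sf1 (-0.08 ± 0.11), Khnyn (0.07 ± 0.09) and Nynrin (0.15 ± 0.28), also in this stretch, were not called. Nor were Ipo4 (0.18 ± 0.12), Gm49747 (0.12 ± 0.29), Tinf2 (0.26 ± 0.21) and Mdp1 (-0.28 ± 0.11, edgeR adjusted p = 0.0985). Of the 14, with the selected genes, 12 lay higher in KO in males and 9 in females. Beside Amer2, Mtmr6 stood at 0.39 ± 0.13 (edgeR adjusted p = 0.0612).

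Of the other called genes in the 10 Mb interval, those lower in KO on average included Cryl1, a dehydrogenase related to lens crystallins, 5.02 Mb away, at -0.56 ± 0.09 (edgeR adjusted p = 0.000320). Ang, a secreted ribonuclease 1.10 Mb away, stood at -0.50 ± 0.10 (edgeR adjusted p = 0.00365), and Rnase6, another ribonuclease, at -0.34 ± 0.10. Mmp14, a membrane matrix metalloproteinase, stood at -0.42 ± 0.13, and Psmb5, a catalytic proteasome subunit, at -0.48 ± 0.15. Pck2, the mitochondrial phosphoenolpyruvate carboxykinase, stood at 0.27 ± 0.08. Ndrg2, an astrocyte-rich gene 284 kb away, averaged 97.8 ± 53.2 CPM in male KO and 13.1 ± 7.51 CPM in male WT (2.82 ± 0.43, edgeR adjusted p = 0.000257), and the part of the astrocyte transcripts given above in this was not tested. In 1 sex only, Jph4, a junctophilin of neurons, was higher in male KO (3.15 ± 0.66), Mettl17 (-0.43 ± 0.13) and Gm27010 (-1.44 ± 0.40) were lower in male KO, and the lectin Lgals3 (-1.30 ± 0.31) and the eosinophil-associated ribonuclease Ear2 (-1.90 ± 0.51) were lower in female KO. The difference between the sexes was not tested for these genes.

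No tested partner of the 9 in their pathways was called. The lists, 7 in all, were for the FACT chaperone, m6A writers, readers and erasers, necroptosis, Rab prenylation, the phosphatase complex of Tox4, adenylyl cyclases, and the AMER family with the beta-catenin destruction complex. Of 48 tested genes in them besides the 9, edgeR called 0 in males, in females and on average, beside 6.24%, 2.68% and 9.50% of all genes, with 6, 3 and 8 at an unadjusted p under 0.05, and DESeq2 called 0 in each. In necroptosis, where 10 genes were tested besides Ripk3, Ripk1, the kinase upstream of Ripk3, stood at 0.06 ± 0.17 in males and 0.36 ± 0.22 in females, Casp8, the protease that restrains the pathway, at 0.32 ± 0.17 and 0.27 ± 0.20, and Zbp1, a nucleic acid sensor that activates Ripk3, at 0.45 ± 0.28 and -0.22 ± 0.35. Rabggtb, which forms the enzyme together with Rabggta, averaged 55.7 ± 9.58 CPM in male KO and 56.0 ± 3.01 CPM in male WT, at 0.01 ± 0.15. Adcy7, another adenylyl cyclase measured in these cells, stood at -0.16 ± 0.12 in males and -0.25 ± 0.15 in females. Ssrp1, the partner of Supt16 in FACT, stood at 0.20 ± 0.14 and -0.10 ± 0.16, and Mettl14, the partner of Mettl3, at 0.08 ± 0.13 and 0.23 ± 0.18. Some uncalled genes of the lists had larger differences. On average Chm of the Rab list stood at -1.18 ± 0.45 and Ppp1r10 of the Tox4 complex at -0.39 ± 0.14. Of the m6A list, Rbm15 stood at -0.95 ± 0.32 in males and Ythdf2 at 1.06 ± 0.42 in females. Not every listed gene was tested. Counting the 9, 11 of 13 necroptosis genes, 5 of 10 adenylyl cyclases and 7 of 10 genes of the AMER list were tested. Mlkl was not tested.

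The genes whose profile over the 18 libraries was most like each of the 9 lay on other chromosomes. So did 10585 of the 10948 genes tested, and nothing is read from their place. Likeness was the root mean square difference of log2 CPM after centring each gene on its mean, among genes that varied at least 0.8 times as much. For Ripk3 the nearest was Gm17092 (difference 0.30, against an SD of 0.82 for Ripk3 itself), for Amer2 it was Pdcd1 (0.44, SD 0.95), for Adcy4 it was 9130604C24Rik (0.55, SD 1.11) and for Rabggta it was Tmem106a (0.15, SD 0.29). Among the 5 genes beside Chd8 the nearest were Cnot9 for Supt16 (0.34), Psmc3ip for Rab2b (0.24), Nhlrc3 for Tox4 (0.21), Fcgr1 for Mettl3 (0.16) and Lyn for Hnrnpc (0.12). The points share libraries and depth, and the measure is a description.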

How the data were processed

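Bulk MARS-seq libraries of mouse brain microglia were used, 18 in all, from 5 male KO, 5 male WT, 4 female KO and 4 female WT samples, grouped by the labels. The authors deposited whole-number counts per gene, as reads and as UMI-corrected counts, with no scaling for depth. Per the submitters' processing notes the tools were cutadapt, STAR and HTSeq (no versions) and the build was mm10. For the annotation, strand setting and UMI method, nothing is given in the sources used here. Of 34 library columns per table, the 16 whose names fit none of these samples were left out of every step. Of 55414 identifiers, 52081 were given symbols and positions from GENCODE M21 (GRCm38, the same assembly as mm10), and at least 99.8% of UMIs in each library fell on them.

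UMI-corrected counts were filtered with filterByExpr by group (10948 genes), scaled by TMM and fitted with 1 mean per group over all libraries in edgeR 4.0.16 under R 4.3.3 (quasi-likelihood test, biological coefficient of variation 17.8%). P-values were adjusted by Benjamini-Hochberg over all genes, and the threshold was 0.05. The SE is the log2 fold change divided by the square root of F. CPM of single genes is scaled by TMM, and marker sums and the limits for a count of 0 by the library total. Distance is the gap between gene bodies. Replicates of a group always differed beyond sampling noise (chi-square per degree of freedom 2.92 to 14.0 over 32 pairs), so all libraries were kept. The fit recovered most of the larger changes put into male KO counts simulated from these libraries. Changes in females, or as small as that of Rabggta, were not simulated.

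The 9 genes, the lists and the tests were chosen with earlier results of these data known. The genes named were Chd8, the 9, every tested gene within 250 kb, up to 10 other interval genes called on average by lowest p and up to 5 called in 1 sex, the nearest tested genes on each side of the 10 Mb limit, and the most alike gene of each of the 9. The pathway partners given with values, the promoter stretches and the neighbours within 100 kb of the distal genes were chosen after values were seen. Alternatives were DESeq2 1.42.0, RLE scaling, no filter, read counts, separate fits, a reads-per-UMI covariate, other window sizes and leaving out libraries.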

Additional observations from a re-analysis of the deposited data

Results flagged for a closer look

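Over 36 groups of 4 or 5 libraries, made of the 9 genes in each of the 4 groups, 3 held a library set apart by a gap larger than Dixon's 95% critical value, a rule that chance meets in about 1 of 20 groups. Hnrnpc was low in female KO replicate 33, at 69.5 CPM, beside 146 to 150 CPM in the other female KO libraries. Supt16 was low in the same library, at 5.15 CPM on 2 UMIs, beside 16.8 to 17.5 CPM in the others. Rab2b was low in male KO replicate 9, at 11.0 CPM, beside 17.5 to 18.8 CPM in the other male KO libraries. Female KO replicate 33 was the shallowest library, with 435838 UMIs.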

How the results depend on the processing

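The 4 distal genes lay higher in KO in both sexes in every alternative that gave a value. Adcy4 gave none with the male or the female groups fitted alone. The alternatives reuse the libraries on which these genes were selected, so the constant direction is a description. The interval counts moved more, and the share called over all genes moved too. Of genes within 10 Mb, 12 were called in males (9.23%, beside 6.24% of all genes). On read counts with no UMI correction 4 were called (2.74%, beside 1.83%). Without male KO replicates 6, 9 and 17 it was 5 (3.62%, beside 1.68%), and 8 to 16 when 1 library was left out. In females the count was 7, beside 2.68% of all genes. It was 2 on read counts (beside 1.12%) and 0 with the female groups fitted alone (beside 0%). It was 1 when the range of reads per UMI was added to the model (beside 0.913%) and 3 without the 9 genes (beside 2.68%). When 1 library was left out the female count ran from 0 (beside 0.85% of all genes) to 14 (beside 6.09%). Averaged over both sexes the count was 16 (12.3%, beside 9.50% of all genes), and 10 to 28 when 1 library was left out. The 10 were without female WT replicate 34 (7.46%, beside 8.45%), and the 28 without female KO replicate 33 (21.1%, beside 14.2%). The causes were not tested. Male against female in KO, 1 of the 9 was called without the 2 shallowest libraries (Supt16), and 0 to 1 when 1 library was left out. In WT, 1 was called with no filter (Tox4), 1 with the WT groups fitted alone (Tox4), 1 without the 2 shallowest libraries (Hnrnpc, lower in male WT), and 0 to 1 when 1 library was left out. No paired analysis was possible because the groups share no replicate numbers. The depth of female KO replicate 33, with 2 to 3 UMIs for Supt16, Rab2b, Tox4 and Ripk3, limits the female values.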
